A study of Mus musculus with 10 samples.

Results

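The transcripts described here are those of 7 cytokine genes, Il4, Il5, Il13, Il9, Il10, Il24 and Il31, in mouse T helper cells. They were chosen by name, as the cytokines of the T helper 2 (Th2) cell and the members of the IL-10 family that such cells make, and are 7 of the 22180 genes measured. Each was read by 1 probe set, a group of probes on the array that together report 1 transcript. The arrays held RNA from 4 Th17, 3 Th2 and 3 Th0 cultures, 10 samples in all. All came from CD4-positive spleen lymphocytes of wild-type female Balb/c mice aged 10 to 14 weeks, and in every culture the T cell receptor was stimulated by an antibody to CD3 (4 µg/ml) and the costimulatory receptor by one to CD28 (30 ng/ml). The Th17 cultures also received IL-6 (20 ng/ml), TGF-beta (5 ng/ml), IL-23 (10 ng/ml) and an antibody against interferon gamma (10 µg/ml). The Th2 cultures received IL-4 (100 ng/ml) and the same antibody at the same concentration, and the Th0 cultures had the CD3 and CD28 antibodies alone. Each comparison with Th0 therefore also sets cultures with the antibody against interferon gamma against cultures without it, and the 2 cannot be told apart. For every culture the labels give a medium exchange time of 72 h. They name a selection for CD4 but none for naive cells, so memory and regulatory CD4-positive cells could be in the cultures.

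IL-4, IL-5 and IL-13 are the signature cytokines of Th2 cells. IL-4 drives the Th2 fate and the switch of B cells to IgE, IL-5 is a growth factor of eosinophils, and IL-13 acts on epithelium and smooth muscle, with a receptor that shares a chain with that of IL-4. IL-9 is a growth factor of mast cells and T cells, made by cells cultured with IL-4 and TGF-beta and also by Th2 and Th17 cells. IL-10 restrains inflammation and is made by many T helper subsets, IL-24 is a cytokine of the same family that signals mainly to epithelium, and IL-31 is a Th2 cytokine that causes itch.

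Values are on the log2 scale, so a difference of 1 is a 2-fold difference. They were normalised over all arrays, and values of different probe sets were not compared with each other. The median of all probe sets lay between 3.39 and 3.61 on the arrays, and the 95th percentile of 1105 olfactory receptor genes, which T cells are not known to use, lay between 3.51 and 4.53. Cd3e, a chain of the T cell receptor complex, was between 9.36 and 10.44 and Cd4 between 7.09 and 8.76 on the 10 arrays, and Il17f, a signature cytokine of Th17 cells, was at 9.55 to 10.94 on the Th17 arrays and at 6.66 or less on the others. Arrays within a group were not alike. Th17 replicate 4 and Th2 replicates 2 and 3 lay apart from the rest on the first principal component (37.5, 38.8 and 55.8, against -1.0 or less), which held 35.8% of the variance. Th17 replicates 2 and 3 and Th0 replicate 1 were high in basophil and mast cell markers; both cell types can be a source of IL-4 and IL-13. Results that rest on these arrays are given with and without them.

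The 250 bases before the transcription start are shown for 4 of the genes, because Il4, Il13 and Il5, the signature cytokines of Th2 cells, lie in 1 cluster on chromosome 11, and because Il9 shared a STAT6 motif with Il4. Capitals mark letters of the motifs GATA (GATA after A or T and before A or G), STAT6 (TTC and GAA with any 4 bases between them), STAT3 and STAT5 (the same with 3 bases between them), AP-1 (TGANTCA), Maf (TGCTGA) and the TATA box (TATAAA) on either strand. The NFAT motif GGAAA was also searched on both strands and is left in lower case, and it can overlap a STAT motif. The sequences are from RefSeq, build GRCm38.p6, and run 5′ to 3′ along the gene. The set of promoter sequences used here held entries for 5 of the 7 genes and none for Il10 and Il24. Il4 is at chr11:53618666-53618915 on the minus strand (the more upstream of 2 starts listed), Il13 at chr11:53634703-53634952 on the minus strand, Il5 at chr11:53720544-53720793 on the plus strand and Il9 at chr13:56482258-56482507 on the minus strand.
Il4: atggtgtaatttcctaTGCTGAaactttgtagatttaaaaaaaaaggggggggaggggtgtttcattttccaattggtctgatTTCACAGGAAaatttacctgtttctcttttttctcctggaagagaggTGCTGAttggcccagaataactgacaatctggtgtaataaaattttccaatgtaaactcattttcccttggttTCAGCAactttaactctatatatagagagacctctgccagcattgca
Il13: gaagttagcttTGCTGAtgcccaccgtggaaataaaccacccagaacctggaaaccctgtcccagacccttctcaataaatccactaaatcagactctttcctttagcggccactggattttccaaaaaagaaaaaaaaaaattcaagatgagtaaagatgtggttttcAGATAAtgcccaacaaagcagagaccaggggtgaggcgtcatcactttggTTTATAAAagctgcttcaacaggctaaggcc
Il5: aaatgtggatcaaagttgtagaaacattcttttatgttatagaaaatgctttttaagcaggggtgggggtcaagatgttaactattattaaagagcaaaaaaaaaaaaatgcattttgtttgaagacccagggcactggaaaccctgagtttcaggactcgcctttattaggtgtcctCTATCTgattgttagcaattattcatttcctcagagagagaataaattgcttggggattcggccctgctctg
Il9: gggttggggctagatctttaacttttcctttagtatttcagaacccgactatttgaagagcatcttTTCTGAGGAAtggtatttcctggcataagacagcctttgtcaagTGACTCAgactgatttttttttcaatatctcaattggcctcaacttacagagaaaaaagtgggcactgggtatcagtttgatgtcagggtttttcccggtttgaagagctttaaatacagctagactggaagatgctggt

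The Il4 window held the STAT6 motif as TTCACAGGAA from base -167 to -158, counted back from the start, and 3 Maf motifs. The Il9 window held TTCTGAGGAA from -184 to -175 and the AP-1 motif TGACTCA from -140 to -134. STAT6 is the factor that carries the IL-4 signal to the nucleus, and its motif was in 5.85% of the 32851 windows of the table. GATA letters, read by the Th2 factor GATA3, were in the Il13 window at -81 to -76 in the Il5 window at -72 to -67 and, for Il4, at -80 to -75 in the window of its other listed start, which is not shown, and in 26.5% of all windows. The AP-1 motif was in 6.75% and the Maf motif in 16.1% of all windows. The Il31 window, not shown, held 1 Maf motif and no match to the other motifs. Since Il9 was shown because of its STAT6 motif, that match is not a separate result. All of these are matches of letters, and binding was not measured.

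Across the comparisons, none of the 7 genes was called by the test over all genes (limma with Benjamini-Hochberg adjustment, adjusted p under 0.05). The share of all genes called was 0.0766% in Th17 against Th2, 0.104% in Th17 against Th0 (0.0947% higher and 0.00902% lower) and 0% in Th2 against Th0. At an unadjusted p under 0.05 there were 3 members in Th17 against Th2 (Il4, Il5 and Il31), where 6.25% of all genes reached it, 1 in Th17 against Th0 (Il4), where 5.17% did, and 2 in Th2 against Th0 (Il5 and Il31), where 6.34% did. All 7 members had higher means in Th2 than in Th0 cultures, with a median difference of 0.71 against -0.01 over all genes, and 6 of 7 had lower means in Th17 than in Th2 cultures, with a median difference of -1.18 against -0.01. Both of these comparisons use the Th2 arrays. Over all genes, 47.7% had higher means in Th2 than in Th0, 48.4% in Th17 than in Th2 and 46.8% in Th17 than in Th0 cultures. Groups did not overlap for 1 member, lower in Th17 than in Th2, where 3% of all genes were lower and 2.6% higher without overlap. In Th17 against Th0 there was no such member (3.22% of all genes higher and 4.35% lower), and in Th2 against Th0 there were 2, both higher (4.48% of all genes higher and 3.94% lower). In Th17 against Th0, 2 members had higher and 5 lower means, with a median difference of -0.16 against -0.02. An exact permutation test on 1 gene could not go below p = 0.1 for 3 arrays against 3 or p = 0.0571 for 4 against 3. The plot of differences shows which intervals leave out 0.

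**Figure D1:**
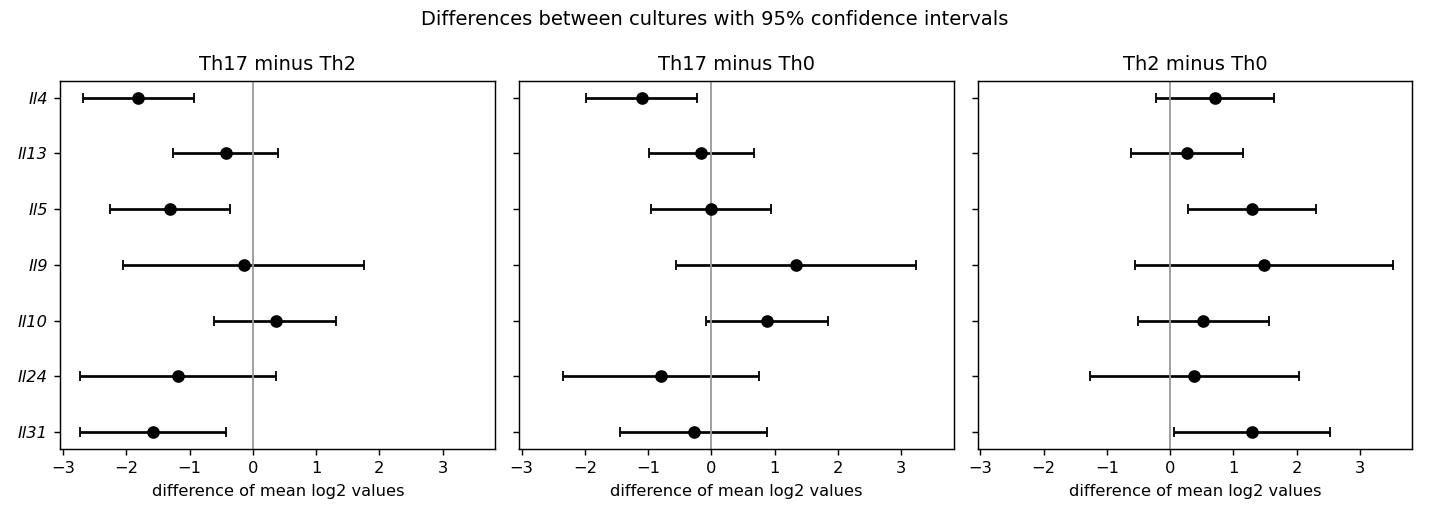
Difference of mean log2 values (horizontal axis) for each cytokine gene in Th17 minus Th2, Th17 minus Th0 and Th2 minus Th0 cultures. Points are fitted differences and bars 95% confidence intervals of the moderated fit, unadjusted over genes. Il4 lies at -1.81 in Th17 minus Th2, and the bars of Il9 and Il24 are the widest.

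Il4 showed the widest separation of Th17 from Th2 cultures. It was at 7.86, 6.33, 6.94 and 7.54 on Th17 replicates 1 to 4, at 8.54, 9.07 and 9.32 on Th2 replicates 1 to 3 and at 7.45, 8.82 and 8.54 on Th0 replicates 1 to 3. Each Th17 array lay below each Th2 array, while Th17 and Th0 overlapped through Th0 replicate 1, and the lowest Th2 array lay within the Th0 values. The mean was 7.17 ± 0.68 (SD, n = 4) in Th17 cultures and 8.98 ± 0.40 (SD, n = 3) in Th2 cultures, so that Th17 minus Th2 was -1.81 ± 0.40 (SE), a 3.51-fold difference (limma, adjusted p = 0.241, exact permutation p = 0.0571, the smallest possible). Against the Th0 mean of 8.27 ± 0.72 (SD, n = 3), Th17 differed by -1.10 ± 0.40 (SE, limma, adjusted p = 0.852) and Th2 by 0.71 ± 0.43 (SE, limma, adjusted p = 0.819). With array weights, arrays unlike their group count less. Th2 replicates 1 to 3 had weights of 0.432, 2.25 and 0.516, so replicate 2, apart on the first component, counted most. In this setting 330 genes were called in Th17 against Th2, against 17 in the main fit. The Il4 difference of Th17 from Th2 was then -1.96 and passed the test (limma, adjusted p = 0.0325). Without the 3 arrays apart on the first component, which left 1 Th2 array, it was -1.50 ± 0.61 (SE, limma, adjusted p = 0.818), and Th2 minus Th0 was 0.27.

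Il13 is the gene next to Il4, with no other protein-coding gene between them, and its differences were not tested against those of Il4. It was at 9.49, 10.21, 9.07 and 9.83 on Th17 replicates 1 to 4, at 9.58, 9.62 and 11.02 on Th2 replicates 1 to 3 and at 9.46, 9.69 and 10.28 on Th0 replicates 1 to 3. The 3 groups overlapped, and Th2 replicate 3 alone was above 10.28. The means were 9.65 ± 0.48 in Th17 (SD, n = 4), 10.07 ± 0.82 in Th2 and 9.81 ± 0.43 in Th0 cultures (SD, n = 3 each). The difference was -0.43 in Th17 against Th2, with a 95% interval of -1.26 to 0.40, and 0.27 in Th2 against Th0, with an interval of -0.62 to 1.15 (limma, adjusted p = 0.945 and 0.940). Without Th2 replicate 3 these differences were 0.05 and -0.21, so their direction rested on that array. Rad50, a DNA repair gene that lies between Il13 and Il5 in the cluster, differed by -0.72 in Th17 against Th0 (limma, adjusted p = 0.978).

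Il5 was highest in the Th2 cultures. It was at 4.39, 5.58, 4.15 and 5.74 on Th17 replicates 1 to 4, at 5.70, 6.61 and 6.51 on Th2 replicates 1 to 3 and at 5.28, 4.26 and 5.40 on Th0 replicates 1 to 3. Each Th2 array lay above each Th0 array, and Th17 replicate 4 lay just above the lowest Th2 array. The mean of 6.27 ± 0.50 in Th2 cultures was 1.30 ± 0.46 (SE) or 2.46-fold above the 4.98 ± 0.63 of Th0 cultures (SD, n = 3 each; limma, adjusted p = 0.767). Th17 cultures, at 4.97 ± 0.81 (SD, n = 4), differed by -1.31 ± 0.43 (SE) from Th2 (limma, adjusted p = 0.615) and by -0.01 from Th0, with a 95% interval of -0.96 to 0.94. Without the 3 arrays apart on the first component these 3 differences were 0.72 for Th2 minus Th0, -0.99 for Th17 minus Th2 and -0.27 for Th17 minus Th0. The order of the group means was thus Th2 above Th0 and Th17, and the last 2 did not differ beyond their spread.

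**Figure D2:**
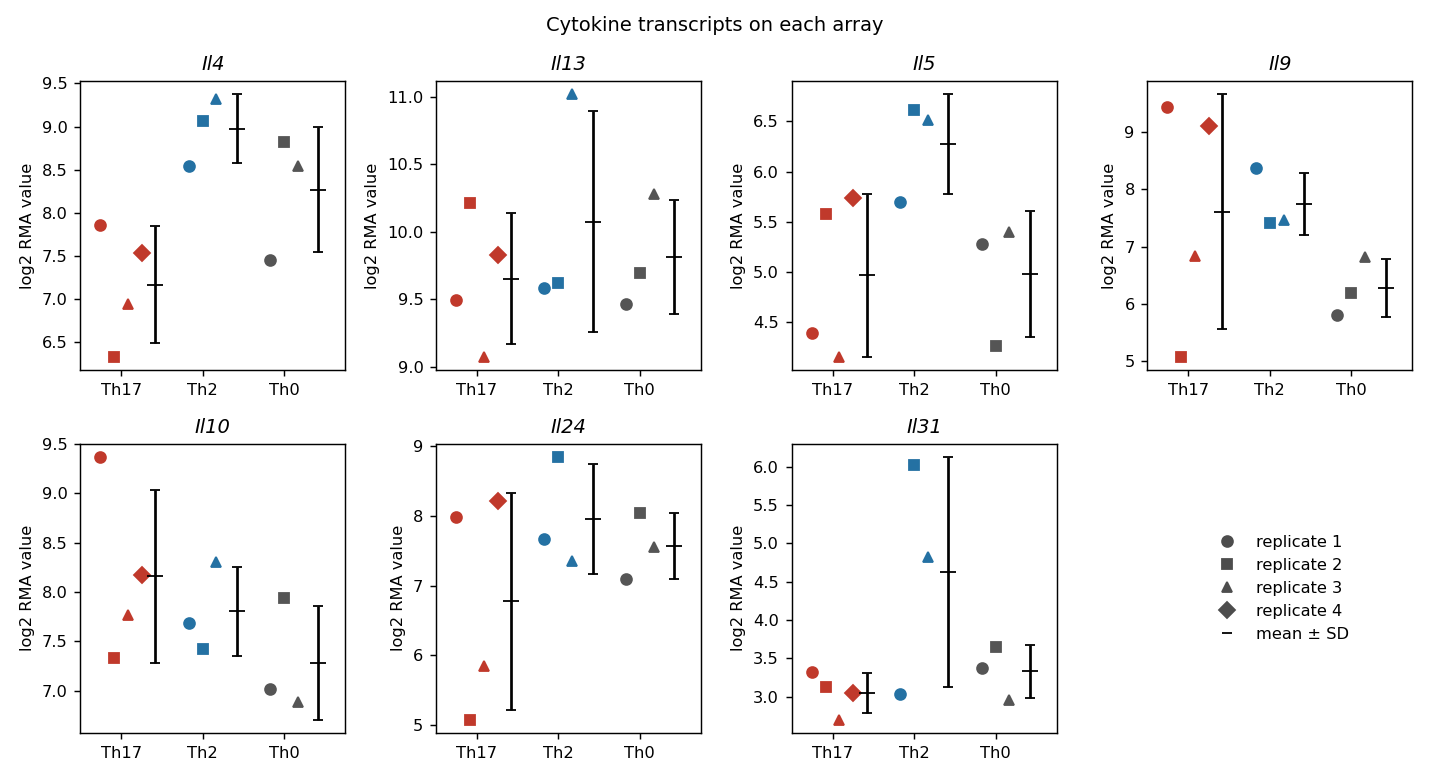
Log2 values (vertical axis, a separate scale for each gene) of the 7 cytokine genes on every array of the Th17, Th2 and Th0 cultures. Symbols stand for replicate numbers, and the bar beside each group gives its mean ± SD. Il9 and Il24 split the Th17 arrays into replicates 1 and 4 above and replicates 2 and 3 below, and Il31 stands out on Th2 replicates 2 and 3.

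Il9 varied most, and mainly inside the Th17 group. It was at 9.44, 5.07, 6.83 and 9.11 on Th17 replicates 1 to 4, at 8.38, 7.42 and 7.46 on Th2 replicates 1 to 3 and at 5.81, 6.19 and 6.82 on Th0 replicates 1 to 3. The highest and the lowest of the 10 values were thus both on Th17 arrays, 4.37 apart, while each Th2 array lay above each Th0 array. Its SD within groups of 1.40 was larger than that of 99.6% of the 6250 genes with a mean of 5 or more, whose median was 0.34. The mean was 7.61 ± 2.06 in Th17 (SD, n = 4), 7.75 ± 0.54 in Th2 and 6.27 ± 0.51 in Th0 cultures (SD, n = 3 each). Th2 differed from Th0 by 1.48 ± 0.92 (SE) or 2.79-fold (limma, adjusted p = 0.826), Th17 from Th0 by 1.34 ± 0.86 (SE, limma, adjusted p = 0.999) and Th17 from Th2 by -0.14, with a 95% interval of -2.05 to 1.76.

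Without the 3 arrays high in basophil and mast cell markers, the Il9 differences were 2.77 ± 0.38 (SE) for Th17 against Th0 (limma, adjusted p = 0.191), 1.52 ± 0.34 for Th17 against Th2 (0.694) and 1.25 ± 0.34 for Th2 against Th0 (0.987). This setting left 2 Th17, 3 Th2 and 2 Th0 arrays. The order there was Th17, Th2, Th0, and with all arrays the Th17 and Th2 means lay within their spread. Without the 3 arrays apart on the first component, which left 1 Th2 array, the order was instead Th2, Th17, Th0. Il9 then differed by -1.27 in Th17 against Th2, by 2.11 in Th2 against Th0 and by 0.84 in Th17 against Th0. The genes whose pattern over the 10 arrays was nearest to that of Il9, by the root mean square difference of log2 values after each gene's mean was subtracted, were Acsl4, Mmp10 and Sdcbp2, each at 0.97, where Il9 itself varied by 1.34. Acsl4 links fatty acids to coenzyme A and Mmp10 is a matrix metalloproteinase. No gene followed Il9 closely by this measure.

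Il10 was highest on Th17 replicate 1. It was at 9.37, 7.33, 7.77 and 8.17 on Th17 replicates 1 to 4, at 7.69, 7.42 and 8.30 on Th2 replicates 1 to 3 and at 7.02, 7.94 and 6.88 on Th0 replicates 1 to 3. The groups overlapped in every comparison. The mean of 8.16 ± 0.87 in Th17 cultures (SD, n = 4) was 0.88 ± 0.44 (SE) or 1.84-fold above the 7.28 ± 0.57 of Th0 (SD, n = 3; limma, adjusted p = 0.997) and 0.36 above the 7.80 ± 0.45 of Th2 cultures (SD, n = 3), with a 95% interval of -0.61 to 1.32. Without Th17 replicate 1 these differences were 0.48 and -0.05. Th2 differed from Th0 by 0.52 ± 0.47 (SE, limma, adjusted p = 0.879).

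Il24, which lies in the same cluster on chromosome 1 as Il10 with Il19 and Il20 between them, split the Th17 arrays. It was at 7.98, 5.07, 5.84 and 8.21 on Th17 replicates 1 to 4, at 7.67, 8.85 and 7.35 on Th2 replicates 1 to 3 and at 7.10, 8.05 and 7.56 on Th0 replicates 1 to 3. Th17 replicates 2 and 3 lay below every other array, and Th17 replicates 1 and 4 lay among or above the Th2 and Th0 arrays. The means were 6.77 ± 1.56 in Th17 (SD, n = 4), 7.95 ± 0.79 in Th2 and 7.57 ± 0.48 in Th0 cultures (SD, n = 3 each). The difference was -1.18 ± 0.70 (SE) in Th17 against Th2 and -0.79 ± 0.70 in Th17 against Th0 (limma, adjusted p = 0.901 and 0.999). Without the 3 arrays high in basophil and mast cell markers both turned, to 0.14 and 0.29. Without the 3 arrays apart on the first component, Th17 minus Th0 was -1.27. The nearest patterns were those of Ets2, a transcription factor of the Ets family, at 0.67, Mfsd2a, a lipid transporter, at 0.69 and Csrnp1, a nuclear protein, at 0.70, where Il24 itself varied by 1.08.

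Of the other IL-10 family cytokines, 5 of 5 were measured and none was called. Il22, a cytokine of Th17 cells that acts on epithelium, was at 2.89, 3.39, 5.35 and 5.14 on Th17 replicates 1 to 4 and at 2.31 or less on the Th2 and Th0 arrays. On Th17 replicates 3 and 4 alone it lay above the olfactory receptor percentile of its array (3.73 and 4.53), so no size of difference from Th2 or Th0 is given (limma, adjusted p = 0.353 and 0.483). Il22 was highest on Th17 replicates 3 and 4, unlike Il10, which was highest on replicates 1 and 4. Il19, which lies between Il10 and Il24, was between 2.85 and 3.78 and Il20 between 2.39 and 2.96 on the 10 arrays, both below the olfactory receptor percentile of each array.

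Il31 was seen above background on 2 arrays. It was at 3.32, 3.13, 2.70 and 3.05 on Th17 replicates 1 to 4, at 3.04, 6.02 and 4.82 on Th2 replicates 1 to 3 and at 3.38, 3.65 and 2.96 on Th0 replicates 1 to 3. Th2 replicates 2 and 3 lay above the 95th percentile of olfactory receptor genes on their own arrays (4.01 and 4.39), and on the other 8 arrays Il31 lay below it. The mean was 3.05 ± 0.26 in Th17 (SD, n = 4), 4.63 ± 1.50 in Th2 and 3.33 ± 0.35 in Th0 cultures (SD, n = 3 each), a difference of -1.58 ± 0.53 (SE) in Th17 against Th2 and of 1.30 ± 0.56 in Th2 against Th0 (limma, adjusted p = 0.624 and 0.777). Without Th2 replicate 1 these were -2.37 and 2.09, and both passed the test (limma, adjusted p = 0.0113 and 0.0229). Without the 3 arrays apart on the first component, Il31 differed by 0.01 in Th17 against Th2 and by -0.29 in Th2 against Th0. Without Th2 replicate 1 alone, 298 and 431 genes were called in the same comparisons, against 17 and 0 with all arrays.

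The 3 genes nearest to Il31 in pattern were Egr1, Nr4a1 and Slc16a1. Egr1, a zinc finger factor induced within minutes of stimulation, lay at 0.26, Nr4a1, a nuclear receptor used as a reporter of receptor signalling, at 0.30 and Slc16a1, a lactate transporter, at 0.31, where Il31 itself varied by 0.98. Egr1 was at 6.41, 8.60 and 7.94 on Th2 replicates 1 to 3 and at 6.23 or less on every Th17 and Th0 array. Nr4a1 was at 7.21, 10.12 and 9.47 on Th2 replicates 1 to 3, and it spanned 6.94 to 8.40 in Th17 and 7.24 to 8.13 in Th0 cultures. A list of 16 T cell activation genes averaged 8.18, 9.27 and 8.99 on Th2 replicates 1 to 3, 7.83 to 8.51 in Th17 and 7.72 to 8.39 in Th0 cultures. Some cytokines that stimulated T cells release were also highest on Th2 replicates 2 and 3. Tnf was at 10.35 on both and at 9.09 or less elsewhere, and Il3 was at 10.97 and 9.94, against no more than 8.53 elsewhere. Lta was not, at 6.61 and 7.08 there and 7.86 on Th2 replicate 1. The list of 12 such cytokines, Il17a and Il17f among them, averaged 8.24 and 8.28 there, below Th17 replicates 2 and 4 (8.63 and 8.51). Of the 12 other cytokines of activated T cells, Il17f alone was called, higher in Th17 than in Th2 and in Th0 cultures, and 11 of 12 had higher means in Th2 than in Th0 cultures, with a median difference of 1.12. Of the 16 activation genes 0 were called, and 11 had higher means in Th2 than in Th0 cultures, with a median difference of 0.93. Over all genes, 47.7% had higher means in that comparison, with a median difference of -0.01. Cell cycle genes were lowest on Th2 replicates 2 and 3, with means of 6.37 and 6.44 against 6.49 to 7.96 elsewhere. Since replicates 2 and 3 are also 2 of the arrays that lay apart on the first component, what part those arrays' overall shift has in the Il31 values was not tested.

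**Figure D3:**
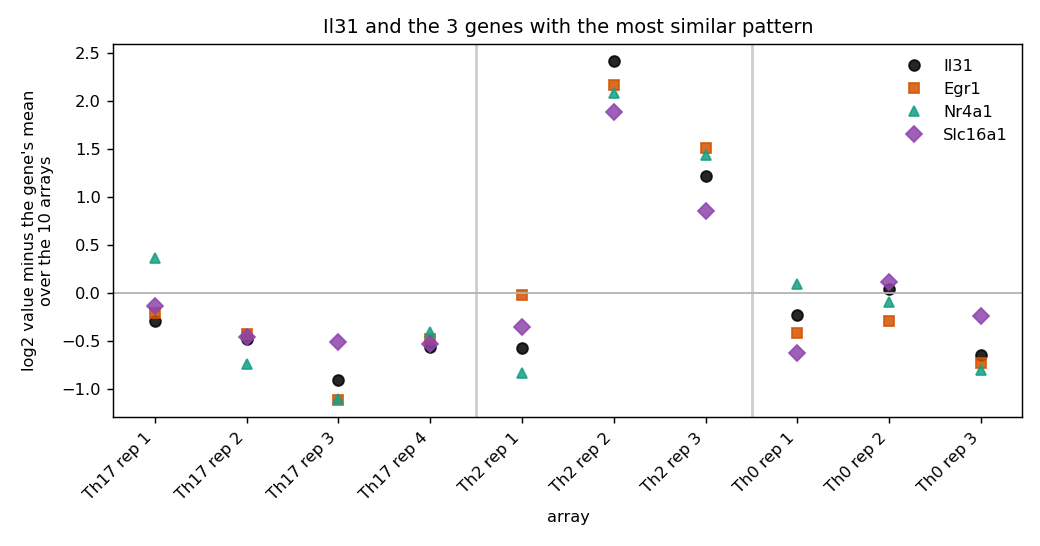
Il31 and the 3 genes nearest to it in pattern (Egr1, Nr4a1 and Slc16a1) on the 10 arrays, each as its log2 value minus that gene's mean over the arrays. All 4 genes stand above the rest on Th2 replicates 2 and 3, and Th2 replicate 1 lies with the Th17 and Th0 arrays.

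The 3 arrays high in basophil and mast cell markers were also the 3 with the lowest Il4 and Il24. The 12 markers, all measured, had a mean of 5.29 on Th17 replicates 2 and 3 each and of 6.69 on Th0 replicate 1, and between 3.22 and 3.97 on the other 7 arrays. Cpa3, a protease of mast cells and basophils, was at 9.28, 9.35 and 10.74 on those 3 arrays and at 6.86 or less elsewhere, and Mcpt8, which basophils make, was at 7.23, 8.14 and 9.54, against no more than 6.01 elsewhere. Fcer1a, Ms4a2, Cma1, Gata2 and Cd200r3 were also higher on those 3 arrays than on any other. Prss34, Hdc, Mcpt4 and Tpsb2 were highest on Th0 replicate 1, but on Th17 replicate 2 they lay within the range of the other 7 arrays. Kit was at 5.07, 5.02, 4.83 and 4.78 on Th17 replicates 1 to 4. Il4 was at 6.33, 6.94 and 7.45 on Th17 replicates 2 and 3 and Th0 replicate 1 and at 7.54 or more on the other 7. Il24 was at 5.07, 5.84 and 7.10 there and at 7.35 or more on the other 7. The ranges of Il9 (5.07 to 6.83 against 6.19 to 9.44), Il10, Il5, Il13 and Il31 on the 3 arrays overlapped with those on the other 7.

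The T cell markers had means of 9.12 to 9.26 on the 3 arrays high in basophil markers, within the 8.53 to 9.68 of the other 7. In RNA from mixed cells, fewer cells of a type and less RNA per cell cannot be told apart. Without those 3 arrays, Il4 differed by -1.28 ± 0.26 (SE) in Th17 against Th2 and by -0.98 ± 0.29 in Th17 against Th0 (limma, adjusted p = 0.649 and 1.00), so the difference of Th17 from Th2 was smaller than with all arrays but kept its direction. The part of basophils or mast cells in these values was not tested. Markers of group 2 innate lymphoid cells, another source of IL-5 and IL-13, had means between 4.89 and 5.34 on all arrays, and 0 of 7 were called in any comparison. Il1rl1, also listed, was not measured. Il2ra, which is on the T cell activation list too, was at 9.88 to 10.82, and Klrg1 and Nmur1 lay below the olfactory receptor percentile of each array. Rora was higher by 1.12 in Th17 against Th0 and by 1.17 against Th2 (limma, adjusted p = 0.0549 and 0.0586). The level of these cells cannot be read from the mean. Myeloid markers had a mean of 4.54 on Th17 replicate 1, where Il10 was highest, and 3.67 or less elsewhere. S100a8 (7.16), S100a9 (6.52) and Lyz2 (5.43) were well above their other values there, while Cd14 (2.76), Csf1r (3.33) and Adgre1 (2.89) were not. B cell markers were also highest on that array and on Th0 replicate 2, with a mean of 4.84 on each. The part of myeloid or B cells in the Il10 value was not tested.

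**Figure D4:**
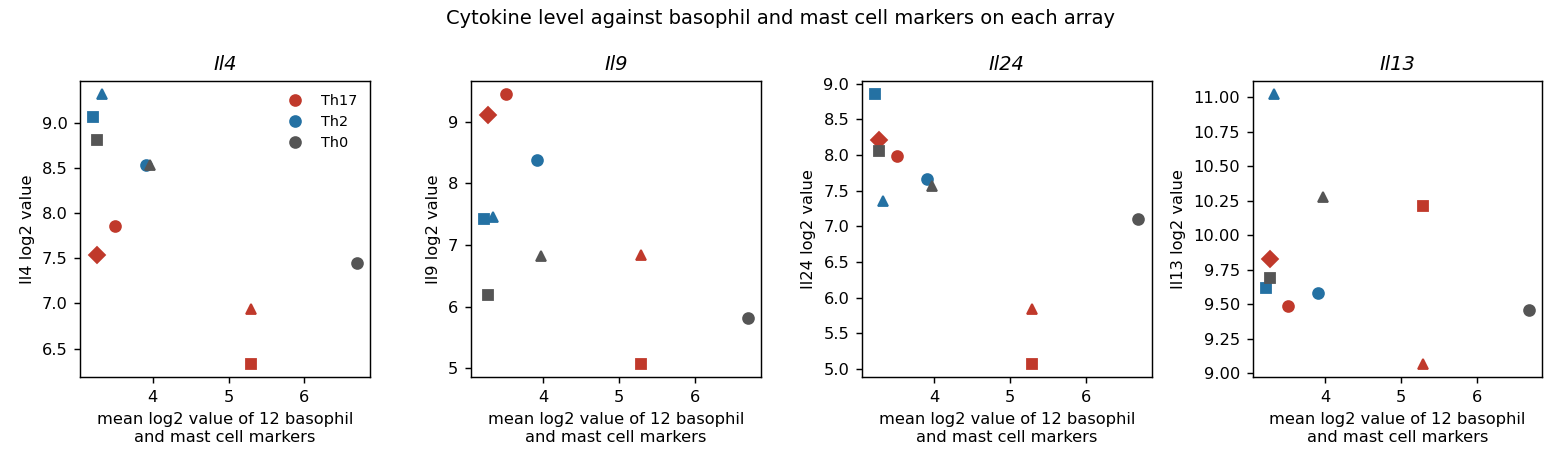
Log2 values of Il4, Il9, Il24 and Il13 (vertical axes) against the mean log2 value of 12 basophil and mast cell markers (horizontal axis), 1 point per array, coloured by culture, with symbols for replicate numbers as in the plot of all cytokines. For Il4 and Il24 the 3 arrays right of a marker mean of 5 lie below all other arrays, and for Il13 they do not.

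Of the 33 transcription factors listed as acting on these genes, 32 were measured. In Th17 against Th0, 1 rose and 1 fell. Ahr, the aryl hydrocarbon receptor, which promotes Il22 and Il10 expression, rose by 2.45 ± 0.36 (SE) to 6.59 ± 0.74 in Th17 (SD, n = 4), against 4.14 ± 0.47 in Th0 cultures (SD, n = 3; limma, adjusted p = 0.0381). Gata3, the factor that opens the Il4, Il5 and Il13 cluster, fell by 1.92 (limma, adjusted p = 0.0381). It was at 6.04, 5.41, 5.67 and 6.21 on Th17 replicates 1 to 4, at 8.15, 7.28 and 7.14 on Th2 replicates 1 to 3 and at 7.43, 8.14 and 7.68 on Th0 replicates 1 to 3, so Th17 lay below both other groups, while Th2 differed from Th0 by -0.23 (limma, adjusted p = 0.927). Both calls were near the threshold: with 1 array left out in turn, that of Gata3 was lost in 9 of 10 fits and that of Ahr in 8 of 10, with differences of -2.08 to -1.72 for Gata3 and 2.10 to 2.71 for Ahr. The 2 Th17 arrays with the lowest Gata3, replicates 2 and 3, were also those with the lowest Il4 and those high in basophil and mast cell markers. On Th2 replicates 1 to 3 the order was the opposite, with Il4 at 8.54, 9.07 and 9.32 as Gata3 fell. The part of Gata3 in the Il4 values was not tested.

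Maf, which binds the Il4 promoter and promotes Il10 and Il21 expression, was at 9.73, 9.51, 9.08 and 8.63 on Th17 replicates 1 to 4, at 7.25, 5.59 and 6.98 on Th2 replicates 1 to 3 and at 7.61, 8.96 and 7.07 on Th0 replicates 1 to 3. Each Th17 array lay above each Th2 array, and the difference was 2.63 ± 0.49 (SE, limma, adjusted p = 0.113). Il4 had the opposite order, and the Il10 groups overlapped. Irf4, which works with Batf at Il10, Il9 and Th2 cytokine genes, was higher on each Th2 array than on each Th0 array, by 1.10 ± 0.43 (SE, limma, adjusted p = 0.767), and Batf differed by -0.78 ± 0.36 (adjusted p = 0.793). Stat6 differed by 0.15 in Th17 against Th2 and by 0.00 in Th2 against Th0, with a 95% interval of -0.45 to 0.46. Prdm1, which encodes a repressor that is also needed for Il10 expression, differed by -0.64 and Nfil3, a factor that promotes Il10, by -1.08 in Th2 against Th0 (limma, adjusted p = 0.794 and 0.772). Of 12 genes of IL-10-producing T cells, all measured, Ahr alone was called, in Th17 against Th0.

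**Figure D5:**
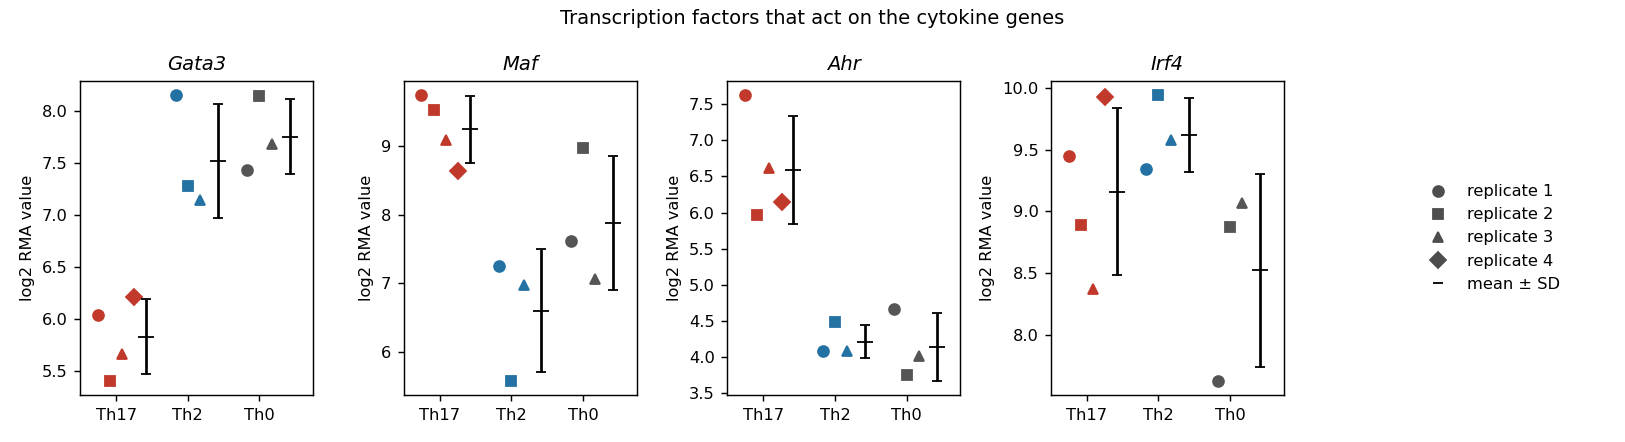
Log2 values of Gata3, Maf, Ahr and Irf4 on each array of the Th17, Th2 and Th0 cultures, with the mean ± SD of each group beside its points. Gata3 in Th17 cultures lies below both other groups and Ahr above them, and Maf separates Th17 from Th2 cultures.

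Receptor chains for the 7 cytokines showed no called gene in any comparison, with 14 of 15 measured. Il10ra, the ligand-binding chain of the IL-10 receptor, differed by -1.34 ± 0.46 (SE) in Th17 against Th0 (limma, adjusted p = 0.802) and was lower on each Th17 array than on each Th0 array. Il10rb, the chain shared by several IL-10 family receptors, differed by -0.80 in Th2 against Th0 (adjusted p = 0.767), and Csf2rb, the signalling chain of the IL-5 receptor, by 1.09 in Th17 against Th2 (0.673). Csf2rb was at 5.39, 5.53 and 5.32 on Th17 replicates 2 and 3 and Th0 replicate 1 and at 4.64 or less elsewhere, that is, highest on the arrays high in basophil and mast cell markers. Il4ra was at 9.77, 7.49 and 6.05 on Th2 replicates 1 to 3, a wider span than in either other group.

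Among 11 measured Th2-associated genes outside the cytokines and factors, none was called, and 9 of 11 had lower means in Th17 than in Th2 cultures and 8 of 11 lower means in Th2 than in Th0 cultures, with median differences of -0.39 and -0.40. The lower Th2 level was on the 2 Th2 arrays that lay apart on the first component: the list averaged 6.99, 5.72 and 5.45 on Th2 replicates 1 to 3, against 6.28, 6.85 and 6.42 on Th0 replicates 1 to 3, so that Th2 replicate 1 lay above each Th0 array. Epas1, a hypoxia-inducible factor of Th2 cells, differed by -3.36 ± 0.70 (SE) in Th17 against Th0 (limma, adjusted p = 0.201). It was at 7.66, 4.94 and 4.44 on Th2 replicates 1 to 3, against 7.31, 8.18 and 6.12 on Th0 replicates 1 to 3. Of the 9 measured neighbours of the Il4, Il5 and Il13 genes none was called, and all 9 had lower means in Th17 than in Th0 cultures, with a median difference of -0.28. Over all genes, 46.8% had higher means in that comparison, with a median difference of -0.02. Of the 9, Slc22a4 and P4ha2 lay below the olfactory receptor percentile of each array. Slc22a4, a transporter gene near the cluster, differed by -0.28 in Th17 against Th0 (limma, adjusted p = 0.999). Csf2, a cytokine gene of the same region, differed by -1.29 ± 0.53 (SE) in Th17 against Th2 (limma, adjusted p = 0.739), with 8.62 and 8.12 on Th2 replicates 2 and 3 and 7.10 or less elsewhere. Of the 8 measured neighbours of Il10 and Il24 none was called, with median differences of 0.02 to 0.09.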

How the data were processed

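RNA of each of 10 samples was read on 1 array, and titles gave its group and replicate number. For Th2 replicate 3 the description gives the number 4 instead. Replicates are labelled biological without a statement of separate animals, so p-values reflect only how far these samples spread. The deposited log2 values came from RMA (background correction, quantile normalisation and probe set summary), run by the authors in Affymetrix Expression Console 1.3.0.187, per the submitters' processing notes. RMA compresses differences of weakly expressed genes, and quantile normalisation hides changes in total RNA. A genome build was not given in the sources used here.

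Of 41345 probe sets, 23521 had 1 gene symbol in the platform's table, 1814 had several and 16010 were not in it. The brightest probe set stood for a gene, which left 22180 genes, with no filter on low values. The 3 group means were fitted to all 10 arrays with limma 3.58.1 in R 4.3.3 (lmFit and eBayes, 7 residual degrees of freedom). Tests were two-sided, with Benjamini-Hochberg adjustment across the 22180 genes, and calls required an adjusted p under 0.05. The number of arrays limits the precision. The fit was tested on simulated data. Alternatives were renormalisation, a filter, array weights, moderation with trend, 2-group fits, replicate blocks and left-out arrays.

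The 7 cytokines, the lists and the tests were chosen with earlier results of these data known, so list counts are descriptions. All 7 cytokines are named. In each list, the genes to name were at most 4 called ones, by size of change, or else at most 2 by p, with Gata3, Maf, Stat6, Irf4, Batf, Prdm1, Ahr, Nfil3, Cpa3, Mcpt8 and Il17f. The genes nearest in pattern were sought for cytokines with an SD over 1, among named genes with a mean of 5 or more. Cd3e, Cd4, Tnf, Il3, Il4ra, Il19, Il20 and Csf2 were named in part after their values were seen. Deviations from the group means correlated between -0.31 and 0.30 for arrays with the same title number in different groups. By the number of its description, Th2 replicate 3 goes with Th17 replicate 4, at 0.49, and both arrays lay apart on the first component. With so few arrays per group, these correlations cannot tell whether samples were paired. B cell, CD8, NK and NKT cell, regulatory T cell and cell cycle genes were also listed. B cell markers had means from 3.59 to 4.84, CD8, NK and NKT markers from 4.74 to 5.53 (Klrd1 alone called, higher in Th17 than in Th2 and Th0) and regulatory T cell markers from 6.19 to 7.34 over the arrays. Cell cycle genes had 0 of 19 called, as had the B cell and regulatory T cell markers 0 of 7 each. Genes of IL-10-producing T cells had means from 5.44 to 6.84.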

Additional observations from a re-analysis of the deposited data

Results flagged for a closer look

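In Th17 cultures, Slc22a4, a gene near the Il4 cluster, was at 2.73 on replicate 3 and at 2.90 to 2.92 on the other 3 arrays. The gap to the nearest array was 0.905 of the group's whole range, above Dixon's 95% critical value for 4 samples. Chance gives such a gap in about 1 in 20 groups, and all 4 values lay below the 95th percentile of olfactory receptor genes on their arrays.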

How the results depend on the processing

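The 21 cytokine differences were recomputed under 21 other settings. The cause of each change below was not tested. Of 438 recomputed differences 412 kept their direction and their side of the threshold, 22 reversed and 4 passed the test that they had missed; 10 of the 21 never reversed, those of Il4 in all 3 comparisons among them. No cytokine difference was called in the main fit, so no reversal could be of a called one. Array weights gave 2 called members in Th17 against Th2 (Il4 and Il31), and without Th2 replicate 1 there was 1 (Il31) there and in Th2 against Th0, so leaving out arrays in turn gave 0 to 1 called members. Il13 reversed with array weights (-0.09 in Th2 against Th0) and without the 3 arrays apart on the first component (-0.23 in Th2 against Th0 and 0.01 in Th17 against Th2), where Il31 also reversed (-0.29 and 0.01). Without the 3 arrays high in basophil markers Il5 (0.24) and Il24 (0.29) reversed in Th17 against Th0, and Il9 (1.52) and Il24 (0.14) in Th17 against Th2. With arrays left out in turn, ranges that crossed 0 were, in Th17 against Th2, -0.67 to 0.05 for Il13, -0.75 to 0.71 for Il9 and -0.05 to 0.63 for Il10. In Th17 against Th0 they were -0.37 to 0.26 for Il5 and -0.35 to 0.08 for Il13, and in Th2 against Th0 -0.21 to 0.51 for Il13 and -0.06 to 0.69 for Il24.

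Counts of all called genes were 17 in Th17 against Th2, 23 in Th17 against Th0 and 0 in Th2 against Th0 (limma; 1407 genes there at an unadjusted p under 0.05). With arrays left out in turn they ran from 3 (without Th2 replicate 2) to 298 (without Th2 replicate 1), from 2 (without Th0 replicate 3) to 36 (without Th2 replicate 1) and from 0 to 431 (without Th2 replicate 1). Without any other single array they were 3 to 21, 2 to 12 and 0 to 1. They were 330 and 60 with array weights in the comparisons of Th17 with Th2 and Th0, 10 with the filter on means in Th17 against Th2, and 4 with median centring in Th17 against Th0. Without the arrays high in basophil markers they were 6 and 3, and without the arrays apart 46 in Th17 against Th0 and 2 in Th2 against Th0. With the replicate number as a block they were 11 and 8 in Th17 against Th2 and Th0, and 5 and 5 with the number of the description for Th2 replicate 3. The call of Gata3 in Th17 against Th0 was lost in 4 of the 11 settings that left out no single array, and that of Ahr in 6, the replicate block (-2.04 and 2.60) among them. The block changed no call of a member, with Il4 at -1.93 (limma, adjusted p = 0.360) in Th17 against Th2. Fits that left 1 Th2 array assume that it varies like the other groups. Signal near background limits Il31.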
